A study of Saccharomyces cerevisiae with 24 samples.

Results

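Autophagy genes with an ATG name were followed in purified mother cells of diploid budding yeast (Saccharomyces cerevisiae) in log phase and after ageing. The members were all gene rows whose name in the deposited tables was ATG followed by a number, which gave 28 of 6664 genes in each of the 3 tables. All 28 had the same coordinates in the R64 reference, and all 28 passed the filter on low values. By textbook role, 18 members belong to the core machinery that builds the autophagosome, 7 to selective autophagy, 2 act in the vacuole, and 1 (ATG26) is a sterol glucosyltransferase. Another 7 ATG genes appear in the tables under a different name and are not members. They are ATG31 (CIS1), ATG36 (YJL185C), ATG38 (YLR211C), ATG39 (YLR312C), ATG40 (YOR152C), ATG41 (ICY2) and ATG42 (YBR139W), and they are given beside the members.

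All strains were diploids of the mother enrichment programme, in which β-estradiol stops daughter cells from dividing so that mothers can be aged in culture and purified through biotin on their cell wall. They were grown in YPD, and poly(A)+ RNA was sequenced by strand. The mus81 table covered log phase, 24 h and 48 h of ageing in mus81 mutants and in wild type (2 libraries per group). The hst3 hst4 table held aged and log-phase libraries of hst3 hst4 double mutants (2 each) and of wild type (1 each). Its aged samples carry 48 h in their titles and 24 h in their age label, and are called aged here. The genotype label of all 6 says wild type, so the titles were followed. The translocation table held a strain with an XII<>V translocation (XIIr<>V) and a control strain carrying ADE2 and pGST-V-U, both a/a diploids with Tom70-GFP and no I-SceI, with 1 library each for log phase, 24 h and 48 h. Here wild type and control strains carried the same enrichment programme as the mutants. Nothing in the labels says whether replicate libraries came from separate cultures, so the p-values below reflect library-to-library spread, which may be technical.

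Values were log2 values scaled by the authors within a table. Whole reads recovered from them came to between 1656535 (wild type 24 h replicate 2) and 11330955 (mus81 log phase replicate 1) per library. The targeted genes checked the labels: MUS81 had 0 to 10 reads in the 6 mus81 libraries, against 39 to 161 in the 6 wild-type libraries. HST3 had 2 to 10 reads in the hst3 hst4 libraries, against 278 to 319 in wild type, and HST4 had 0 or 1 against 87 to 90. Of 12 genes that mark daughter cells, none was at 0 in any library. Their summed linear level was 5517 to 6235 at 48 h in mus81 cells, against 15021 to 17734 in log phase, and 7501 to 10293 at 48 h in wild type, against 16774 to 21869 in log phase. The summed level of daughter cell markers therefore moved with age in the opposite direction to most results below. Their part in those results was not tested. In bulk RNA, fewer cells of a type and less RNA per cell cannot be told apart.

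Autophagy encloses cytoplasm or a chosen organelle in a double membrane, the autophagosome, which fuses with the vacuole so that its contents are broken down and reused. In yeast it is held down by the nutrient kinase TORC1 and by transcriptional repressors such as Ume6, and it is induced by starvation. The Atg1 kinase complex starts the process, Atg9 vesicles and Atg2 supply membrane, and a pair of ubiquitin-like systems attach Atg8 to the growing membrane, where receptors tether selected cargo.

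The upstream sequences of 5 genes are shown because these genes mark the ends of the range described below: ATG8, ATG34 and ATG33 had the highest member changes at 48 h, ATG39 stood above all members, and ATG27 was not called higher with age in any table. Each is the 250-base window from 300 to 51 bases before the start codon, read 5′ to 3′ on the strand of the gene from the RefSeq R64 genome. The windows lie at chrII:80782-81031 (ATG8, minus strand), chrXV:165414-165663 (ATG34, plus strand), chrXII:840021-840270 (ATG33, plus strand), chrXII:758884-759133 (ATG39, minus strand) and chrX:90148-90397 (ATG27, minus strand). Capitals mark 3 motifs, on either strand: GCCGCC, the core of the URS1 element bound by Ume6, AGGGG, the stress response element bound by Msn2 and Msn4, and GATAAG, a site for GATA factors such as Gln3 and Gat1.
ATG8: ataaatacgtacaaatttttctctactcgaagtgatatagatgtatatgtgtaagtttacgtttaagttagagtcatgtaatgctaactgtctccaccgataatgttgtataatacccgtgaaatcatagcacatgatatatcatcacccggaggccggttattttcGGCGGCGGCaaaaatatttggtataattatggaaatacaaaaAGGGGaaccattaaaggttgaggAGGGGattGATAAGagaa
ATG34: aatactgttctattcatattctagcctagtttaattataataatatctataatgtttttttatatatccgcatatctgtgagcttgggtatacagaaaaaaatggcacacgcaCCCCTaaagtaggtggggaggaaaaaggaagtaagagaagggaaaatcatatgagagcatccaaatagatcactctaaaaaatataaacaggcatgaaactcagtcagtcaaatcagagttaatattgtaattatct
ATG33: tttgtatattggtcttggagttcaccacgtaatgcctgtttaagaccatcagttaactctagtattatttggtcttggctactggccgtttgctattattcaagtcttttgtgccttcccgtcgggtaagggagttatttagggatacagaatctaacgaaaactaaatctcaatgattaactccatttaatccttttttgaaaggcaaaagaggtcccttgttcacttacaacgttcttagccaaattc
ATG39: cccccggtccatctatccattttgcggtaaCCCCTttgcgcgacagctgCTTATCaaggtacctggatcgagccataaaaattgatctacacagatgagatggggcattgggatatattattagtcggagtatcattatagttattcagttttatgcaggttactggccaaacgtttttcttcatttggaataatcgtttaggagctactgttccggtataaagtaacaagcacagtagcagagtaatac
ATG27: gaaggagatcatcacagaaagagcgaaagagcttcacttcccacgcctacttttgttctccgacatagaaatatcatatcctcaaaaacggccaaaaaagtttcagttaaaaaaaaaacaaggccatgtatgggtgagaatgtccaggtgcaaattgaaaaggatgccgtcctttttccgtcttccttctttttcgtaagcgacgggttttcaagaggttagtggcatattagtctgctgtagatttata

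GCCGCC occurred in 288 of 5977 such windows (4.82%) and in 1 of 28 member windows, that of ATG8, where a pair of overlapping copies forms the run GGCGGCGGC. AGGGG occurred in 19.2% of all windows and in 9 of 28 member windows. GATAAG occurred in 718 of 5977 windows and in 8 of 28 member windows. The ATG33 and ATG27 windows held none of the 3. Whether the motifs went with the change with age was not tested. A match is a description of letters and not a bound site.

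In aged mother cells most ATG transcripts were higher than in log phase, and no member was called lower than in log phase in the mus81 table. At 48 h, 24 of 28 members were called higher in mus81 cells (limma, adjusted p under 0.05), where 30.7% of all 6669 tested features were. In wild type 21 of 28 were called higher at 48 h, where 33.1% of all features were. Features called lower at 48 h made up 29.5% of all in mus81 cells and 30.1% in wild type, and included no member. The median member change at 48 h was 1.07 on the log2 scale in mus81 cells and 1.10 in wild type, beside medians over all features of 0.11 and 0.15. All 21 genes called in wild type were also among the 24 of mus81 cells (100% of the wild-type list, 87.5% of the mus81 list). The 3 called only in mus81 cells were ATG13, ATG16 and ATG21, whose difference between the strains was not called. Under quantile normalization in place of the authors' scaling, 14 members were called higher at 48 h in mus81 cells. The member medians were then 0.61 in mus81 cells and 0.57 in wild type, with all features at -0.09 and -0.11. No share of all features is given for counts under alternative settings, here or below. Such counts are not read as results about the members.

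**Figure D1:**
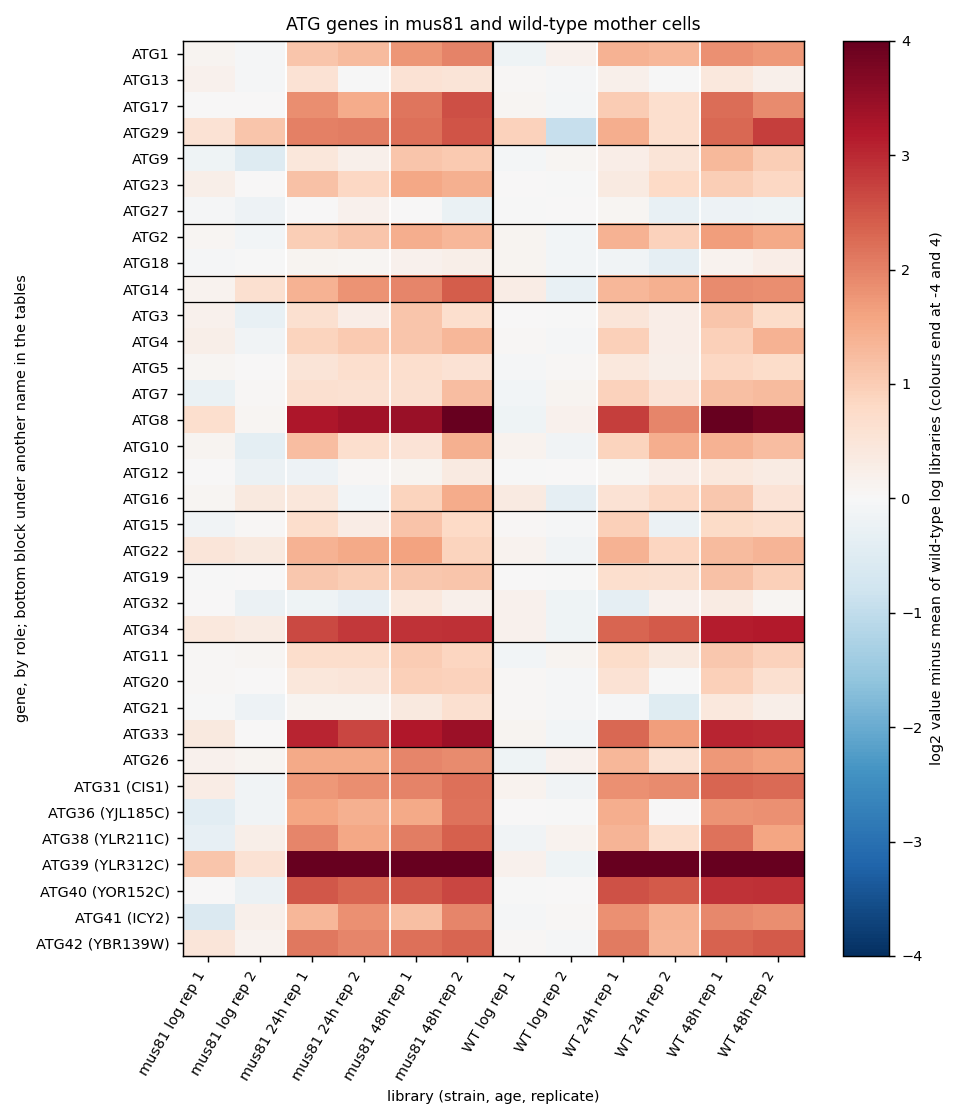
Each row is an ATG gene, grouped by role, and each column is a library of the mus81 table, mus81 on the left and wild type on the right. Colour gives the log2 value minus the mean of the 2 wild-type log-phase libraries. Most rows are red at 24 h and 48 h in both strains, deepest for ATG8, ATG33, ATG34 and ATG39, while ATG27, ATG12, ATG18 and ATG32 stay pale.

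The share of reads that fell on the 28 members moved the same way. It was 0.0599% and 0.0554% in mus81 log-phase libraries, 0.149% and 0.142% at 24 h and 0.205% and 0.218% at 48 h. In wild type it was 0.0562% and 0.0550% in log phase, 0.123% and 0.0929% at 24 h and 0.202% and 0.173% at 48 h. In both strains the log-phase libraries lay below the 24 h libraries, and these below the 48 h libraries, with no overlap. In the authors' scaling the summed linear level of the members rose by a smaller factor. It was 3727.5 and 3454.9 in mus81 log-phase libraries and 7977.3 and 8030.2 at 48 h. In wild type it was 3534.4 and 3512.3 in log phase and 7757.1 and 7250.2 at 48 h.

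Within the Atg1 kinase complex, which receives the signal to start, the kinase itself and the scaffold rose together. ATG1 (YGL180W, chromosome VII) had log2 values of 6.19 and 6.04 in mus81 log-phase libraries, 7.17 and 7.33 at 24 h and 7.83 and 8.05 at 48 h. Wild type had 5.89 and 6.26 in log phase, 7.47 and 7.42 at 24 h and 7.89 and 7.81 at 48 h. The 3 ages did not overlap in either strain, and the 48 h change was 1.83 ± 0.18 in mus81 cells and 1.78 ± 0.18 in wild type (SE, n = 2 libraries per group, limma adjusted p = 6.56e-07 and 7.25e-07). ATG17, the scaffold that gathers the complex, rose by 2.35 ± 0.21 in mus81 cells and 2.06 ± 0.21 in wild type. ATG29, a partner of ATG17, rose by 1.51 ± 0.49 and 2.55 ± 0.49, but its reads were few: 26 and 22 in mus81 log-phase libraries, and 21 and 6 in wild type. ATG13, which links the kinase to TORC1, had the smallest change of the complex, 0.49 ± 0.19 in mus81 cells (called) and 0.30 ± 0.19 in wild type (not called). ATG31, the third partner in the scaffold, was called higher in both strains, by 2.01 and 2.30.

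**Figure D2:**
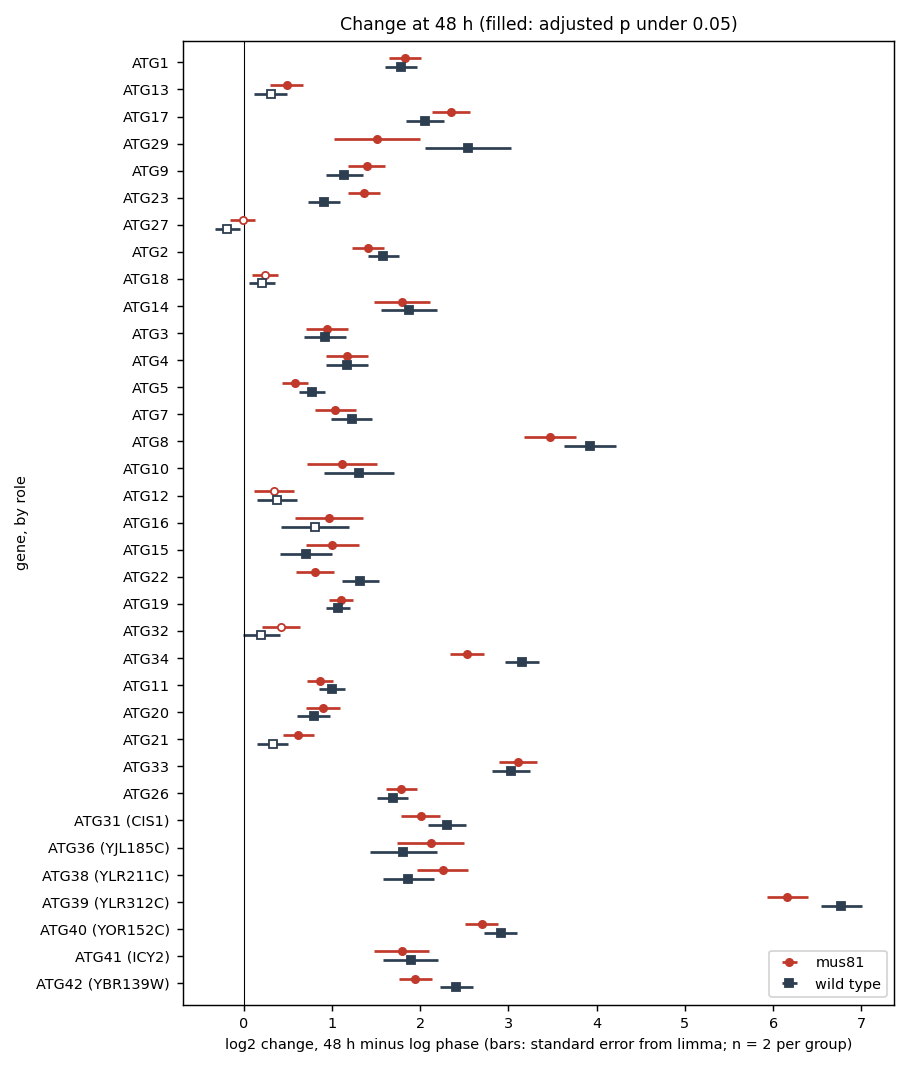
Points give the log2 change from log phase to 48 h for each ATG gene, with limma's standard error as bars, for mus81 (red circles, drawn above) and wild type (dark squares). Filled points passed an adjusted p under 0.05. ATG39 lies at 6.16 and 6.77, ATG8 at 3.47 and 3.92, and ATG27 at -0.01 and -0.18.

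Among the 8 conjugation genes ATG8 stood apart. ATG8 (YBL078C, chromosome II) encodes the ubiquitin-like protein that coats the autophagosome and binds cargo receptors. Its log2 values were 5.67 and 5.08 in mus81 log-phase libraries, 8.23 and 8.35 at 24 h and 8.44 and 9.25 at 48 h. In wild type they were 4.81 and 5.18 in log phase, 7.76 and 6.94 at 24 h and 9.01 and 8.82 at 48 h. No aged library overlapped a log-phase library, and ATG8 was 11.1-fold higher at 48 h in mus81 cells and 15.2-fold higher in wild type (adjusted p = 1.76e-07 and 4.92e-08). The enzymes that process and attach Atg8 changed less. ATG4, the protease that trims Atg8, rose by 1.17 in both strains. ATG7, the activating enzyme, rose by 1.04 in mus81 cells and 1.22 in wild type, and ATG3, which hands Atg8 to lipid, by 0.94 and 0.92. On the second branch, ATG10, the enzyme that conjugates Atg12, rose by 1.12 and 1.30 and ATG5 by 0.58 and 0.78. ATG12, the second ubiquitin-like protein, was at 0.35 ± 0.22 and 0.38 ± 0.22 and was not called. ATG16, the partner of the Atg12-Atg5 conjugate, was called in mus81 cells (0.97 ± 0.39) and not in wild type (0.80 ± 0.39). Over 316 of its 453 bases ATG16 overlaps YMR158W-B on the other strand, and the strand setting of the authors' counting is not given in the sources used here.

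Of the genes that supply membrane, most rose and ATG27 did not. ATG9, a membrane protein of the small vesicles that seed the autophagosome, rose by 1.39 in mus81 cells and 1.14 in wild type. ATG23, which helps Atg9 vesicles to form, rose by 1.36 and 0.91. ATG27 (YJL178C, chromosome X) is a membrane protein that travels with Atg9. It had log2 values of 9.30 and 9.16 in mus81 log-phase libraries, 9.37 and 9.53 at 24 h and 9.36 and 9.07 at 48 h, and 9.34 and 9.37, 9.44 and 9.05, and 9.16 and 9.17 at the same ages in wild type. The mus81 groups overlapped between log phase and 48 h, and the change was -0.01 ± 0.14 in mus81 cells and -0.18 ± 0.14 in wild type (adjusted p = 0.940 and 0.272). ATG2, the lipid transfer protein, rose by 1.41 and 1.58, whereas its partner ATG18, which binds the lipid PI3P, was at 0.24 and 0.21 and was not called. ATG14, the subunit that assigns the PI3-kinase to autophagy, rose by 1.80 and 1.87, from few reads (29 and 24 in mus81 log-phase libraries, 21 and 14 in wild type), and ATG38 of the same complex by 2.26 and 1.87.

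Receptors and factors of selective autophagy were uneven. ATG34 (YOL083W, chromosome XV), a receptor for the vacuolar mannosidase Ams1, had 5.11 and 4.99 in mus81 log-phase libraries, 7.31 and 7.51 at 24 h and 7.57 and 7.60 at 48 h. In wild type it had 4.85 and 4.51, 7.02 and 7.14, and 7.81 and 7.85 at these ages. Aged and log-phase libraries did not overlap, and the 48 h change was 2.53 ± 0.19 in mus81 cells and 3.15 ± 0.19 in wild type. ATG34 shares 141 of 1239 bases with YOL083C-A on the opposite strand. ATG33 (YLR356W, chromosome XII), a mitochondrial outer membrane protein that takes part in mitophagy, rose by 3.10 ± 0.21 and 3.02 ± 0.21. ATG19, the receptor of the constitutive pathway that delivers Ape1 to the vacuole, rose by 1.10 ± 0.14 and 1.07 ± 0.14. ATG32 (YIL146C, chromosome IX), the mitophagy receptor on the mitochondrial surface, had 7.07 and 6.83 in mus81 log-phase libraries, 6.88 and 6.72 at 24 h and 7.49 and 7.25 at 48 h. In wild type it had 7.21 and 6.89, 6.70 and 7.23, and 7.39 and 7.12. The wild-type groups overlapped, and neither the mus81 change of 0.42 ± 0.21 nor the wild-type change of 0.20 ± 0.21 was called. The shared scaffold ATG11 rose by 0.87 and 1.00, the sorting nexin ATG20 by 0.90 and 0.79, and the PI3P-binding ATG21 by 0.62 in mus81 cells, with 0.33 (not called) in wild type.

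Among the receptors listed under other names, ATG39 changed more than any member, while ATG40 and ATG36 lay below ATG8 and ATG33. ATG39 (YLR312C, chromosome XII), the receptor for the nuclear envelope, had 15 and 6 reads in mus81 log-phase libraries, 274 and 231 at 24 h and 550 and 558 at 48 h. Wild type had 5 and 4 reads in log phase, 205 and 51 at 24 h and 340 and 376 at 48 h. No aged library came near a log-phase library. The log2 change at 48 h was 6.16 ± 0.23 in mus81 cells and 6.77 ± 0.23 in wild type, which ranked 11 and 13 from the top among 6669 features. ATG40, a receptor for the endoplasmic reticulum, rose by 2.70 and 2.91, and ATG36, the receptor for peroxisomes, by 2.12 and 1.81. All 7 of these genes were called higher at 48 h in both strains, with medians of 2.12 in mus81 cells and 2.30 in wild type.

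**Figure D3:**
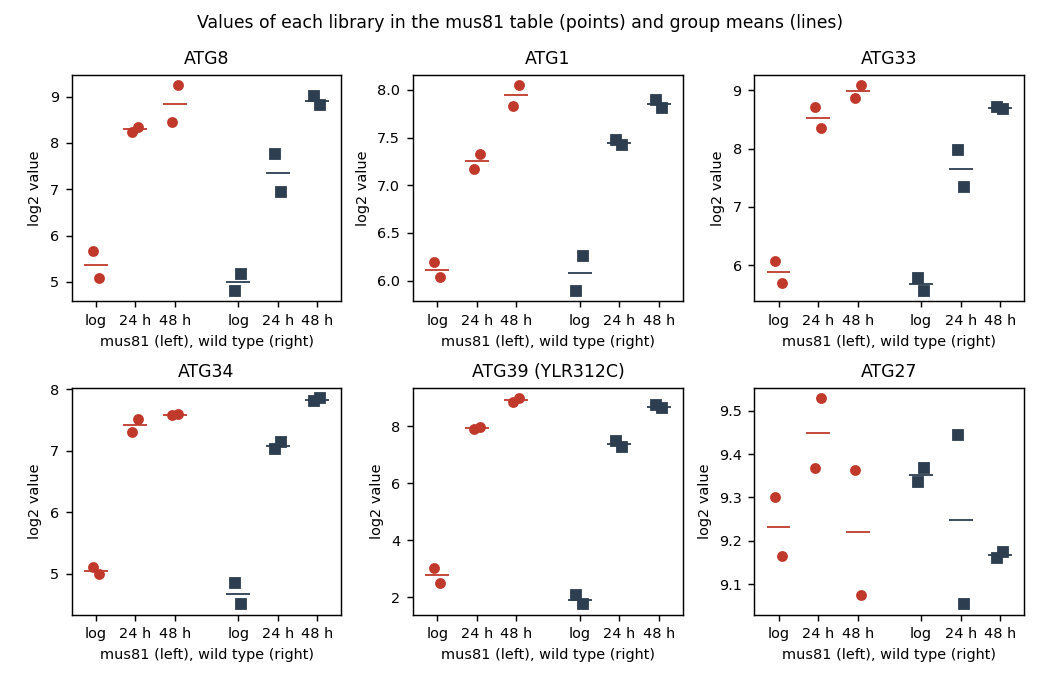
Points are log2 values of single libraries in the mus81 table (mus81 red on the left, wild type dark on the right, ages from left to right) and lines are means of 2 libraries. ATG8, ATG33, ATG34 and ATG39 lie higher in every aged library than in every log-phase library, and ATG27 spans only 9.05 to 9.53.

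At the vacuole, ATG22, an exporter of amino acids from broken-down cargo, rose by 0.81 in mus81 cells and 1.32 in wild type. ATG15, the lipase that opens autophagic bodies, rose by 1.01 and 0.71, the second with an adjusted p of 0.0497. ATG26, whose product adds glucose to sterols and is known for peroxisome breakdown in Pichia pastoris rather than in this species, rose by 1.78 and 1.69.

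Core and selective members were close in count and median. At 48 h, 15 of 18 core members and 6 of 7 selective members were called higher in mus81 cells, with medians of 1.15 and 0.90. In wild type the counts were 13 of 18 and 5 of 7, with medians of 1.16 and 1.00. At 24 h the medians were 0.80 for core and 0.65 for selective members in mus81 cells, and 0.66 and 0.55 in wild type. Within each class the spread was wider than the distance between the classes: at 48 h in wild type core members lay between -0.18 and 3.92 and selective members between 0.20 and 3.15. The difference between the classes was not tested. Genes listed under another name were left out of both classes. Of these, the selective receptors ATG36, ATG39 and ATG40 each changed more at 48 h than the selective median in both strains. The core genes ATG31, ATG38 and ATG41 each changed more than the core median. The closeness of the classes therefore holds for the members only.

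In the authors' scaling much of the change was present by 24 h. In mus81 cells 17 of 28 members were called higher at 24 h than in log phase (26.3% of all features), with a median of 0.80, and in wild type 15 of 28 (24.4% of all features), with a median of 0.63. All 15 were among the 17. Under quantile normalization 9 were called in wild type. The 24 h member medians were then 0.27 in mus81 cells and 0.12 in wild type, with all features at -0.10 and -0.08. In wild type 11 of 28 members then had a change below 0 at 24 h. The 48 h medians under that setting were 0.61 and 0.57, so the part present by 24 h depends on the scaling. ATG8 was already higher at 24 h by 2.92 ± 0.29 in mus81 cells and 2.36 ± 0.29 in wild type, ATG33 by 2.65 and 1.98, and ATG34 by 2.36 and 2.40. ATG29, ATG15, ATG3 and ATG20 were called at 48 h but not at 24 h in either strain.

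Between 24 h and 48 h the strains gave different counts, but whether this change differed between them was not tested. The median member change was 0.37 in mus81 cells and 0.46 in wild type. In mus81 cells only ATG1 of the members was called (0.69 ± 0.18, adjusted p = 0.0340), where 0.99% of all features were called higher. In wild type 12 of 28 were called higher, where 9.06% of all features were, among them ATG8 at 1.56 ± 0.29, ATG29 at 1.48 ± 0.49, ATG17 at 1.21 ± 0.21 and ATG33 at 1.04 ± 0.21. The wild-type count rests on single libraries. It was 4 without wild-type 24 h replicate 2, the shallowest library of the table, 1 without wild-type 48 h replicate 1, 6 without wild-type 48 h replicate 2, and 7 without either mus81 24 h replicate. The mus81 count was 0 without mus81 log-phase replicate 2 or any 1 of the mus81 24 h and 48 h libraries, and 4 without either wild-type 24 h replicate. ATG8 lost its call between 24 h and 48 h without wild-type 48 h replicate 1 (adjusted p = 0.0508).

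No member differed between mus81 and wild type at a matched age. None was called in log phase (0.405% of all features called in either direction), at 24 h (0.93%) or at 48 h (0.24%), by limma on log2 values or by voom on recovered reads. At an unadjusted p under 0.05 there were 0 members in log phase, and 8 (24 h) and 1 (48 h) in aged cells, all higher in mus81 cells. No share over all features is given at this unadjusted threshold, here or below. Such counts are therefore not read as a result about the members. The 8 at 24 h were ATG8, ATG18, ATG26, ATG33, ATG17, ATG23, ATG19 and ATG21. ATG33 had 8.71 and 8.35 in mus81 libraries at 24 h, against 7.97 and 7.34 in wild type, a difference of 0.87 ± 0.21 that missed the threshold (adjusted p = 0.0637). ATG17 had 7.73 and 7.37 in mus81 libraries, against 6.90 and 6.54 in wild type (0.83 ± 0.21, adjusted p = 0.0727). Their libraries did not overlap between the strains. Without wild-type 24 h replicate 1, 4 members were called at 24 h. The difference between the strains in the change with age was not called for any member either, at 24 h (0.015% of all features called in either direction, 2 members at an unadjusted p under 0.05) or at 48 h (0.12%, 1 member), by limma or by voom. At 48 h that difference was -0.45 ± 0.42 for ATG8 and 0.08 ± 0.30 for ATG33.

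Age also changed the order of the transcripts. Per kilobase of coding sequence, ATG27 was the most abundant member in log phase, at a log2 level of 9.53 in mus81 cells and 9.65 in wild type, ahead of ATG5 at 7.45 and 7.40. At 48 h ATG8 led with 10.35 in mus81 cells and 10.41 in wild type. ATG33 and ATG27 followed, at 9.73 and 9.51 in mus81 cells, and at 9.45 and 9.46 in wild type. The levels of ATG33 and ATG27 at 48 h lay within 1 SD of each other in wild type but not in mus81 cells. ATG14 was the lowest member in log phase, at 4.19 in mus81 cells and 3.81 in wild type. Members with a low log-phase level tended to have the larger change: across the 28 genes, the log-phase level per kilobase in mus81 libraries and the 48 h change in wild type had r = -0.37 and rho = -0.44. These are genes measured in the same kind of library and not independent replicates.

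In hst3 hst4 mutants the aged libraries again had more ATG RNA, but the conjugation genes other than ATG8 were not called. Of 28 members, 15 were called higher in aged than in log-phase hst3 hst4 cells (28.6% of all 6613 tested features) and 2 lower, ATG27 and ATG21 (23.6% of all features lower). Median centring and voom each gave 13 higher and 2 lower, and quantile normalization 13 and 4. The median member change was 0.56, beside 0.11 over all features. All 4 members of the Atg1 complex and both of the Atg2-Atg18 pair were called higher, but of 8 conjugation genes only ATG8 was. Leaving out aged replicate 1 or aged replicate 2 left 6 and 5 members called. In this table the members took 0.200% and 0.205% of reads in aged hst3 hst4 libraries and 0.115% and 0.123% in log phase, and 0.127% in the aged and 0.112% in the log-phase wild-type library. Daughter cell markers summed to 12370 to 12691 in aged and 14668 to 16834 in log-phase hst3 hst4 libraries. In wild type they summed to 17460 in the aged and 44675 in the log-phase library. The hst3 hst4 sums hide markers that moved in opposite directions. CTS1, the highest marker in aged hst3 hst4 libraries (mean 12.84), changed by -1.25 in wild type. In hst3 hst4 cells its change was 2.48 above that, so it rose. ASH1 and NIS1 also rose there, and the other markers fell. DSE1 changed by -1.74 in wild type, with a strain difference of -1.14.

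ATG33 had log2 values of 9.06 and 8.97 in aged hst3 hst4 libraries, against 6.89 and 6.38 in log phase. This was a rise of 2.38 ± 0.20 (adjusted p = 0.00166). ATG8 had 8.87 and 8.83 in aged libraries, against 7.65 and 7.97 in log phase (1.04 ± 0.16). ATG32, which was not called in the mus81 table, had 8.24 and 8.41 in aged libraries, against 7.18 and 6.35 in log phase, and rose by 1.56 ± 0.29. Its change was 1.07 between the replicate 1 libraries and 2.06 between those of replicate 2, where log phase had 48 reads. In the wild type of this table ATG32 had 8.16 in log phase and 7.83 in the aged library, near the aged hst3 hst4 values. ATG27 had 9.30 and 9.17, against 9.71 and 9.92, and fell by 0.57 on the log2 scale (SE 0.13, adjusted p = 0.0158). ATG21 fell by 0.43. Aged and log-phase hst3 hst4 libraries did not overlap for these genes.

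ATG15 had the highest fitted change of the members, 3.52 ± 0.99, and that value turns on 1 library. It had 413 and 409 reads in aged hst3 hst4 libraries, against 96 and 7 in log phase, the 7 being in replicate 2. Replicate 2 was sequenced in another lane than replicate 1 and both wild-type libraries, and the change between the replicate 1 libraries alone was 2.00. The log-phase replicates differed by 3.14 on the log2 scale for ATG15, beside a median difference of 0.22 over the members. Of the receptors under another name, ATG39 rose by 2.48 ± 0.16 and ATG36 by 1.63 ± 0.19, while ATG40 (0.54) was not called. ATG41, a core gene under another name, was at -0.83 and was not called.

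**Figure D4:**
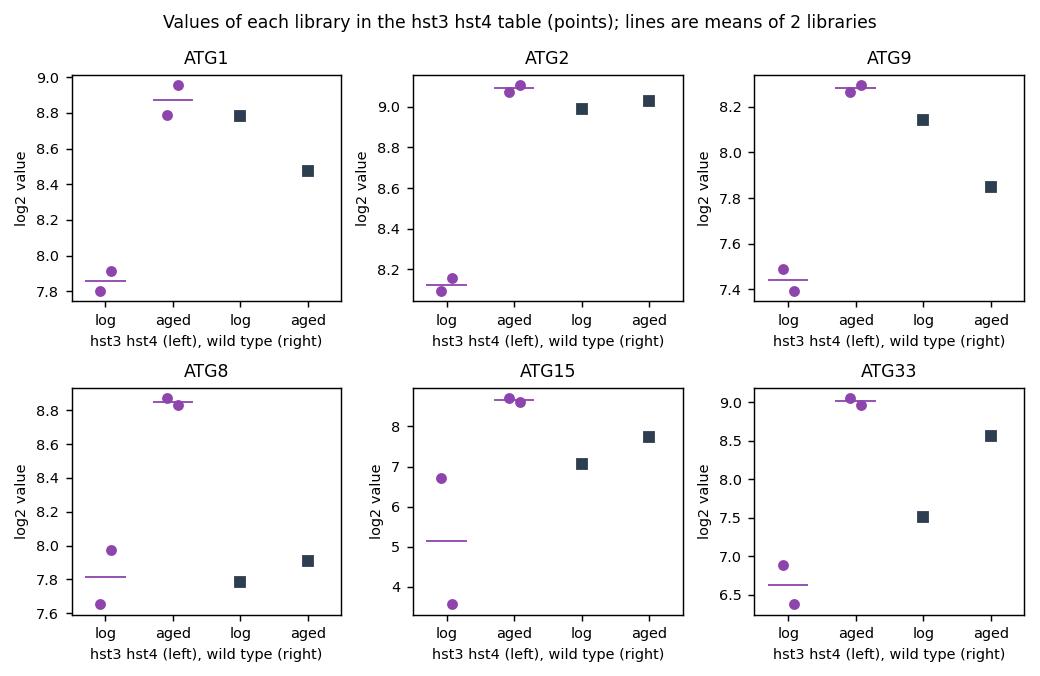
Points are log2 values of single libraries in the hst3 hst4 table, hst3 hst4 on the left (purple, with lines at the mean of 2) and wild type on the right (dark, 1 library each). ATG1, ATG2 and ATG9 are low only in the hst3 hst4 log-phase libraries, and ATG15 is far lower in 1 of the log-phase pair.

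Against wild type, hst3 hst4 cells in log phase had less ATG1, ATG2 and ATG9 RNA. ATG1 had 7.80 and 7.91 in hst3 hst4 libraries and 8.78 in the wild-type library (-0.92 ± 0.16, adjusted p = 0.0253). ATG2 had 8.09 and 8.16, against 8.99 (-0.87 ± 0.14), and ATG9 had 7.49 and 7.39, against 8.14 (-0.70 ± 0.16). These were the only members called there, 0 higher and 3 lower, where 8.36% of all features were called lower. Median centring gave 1 higher and 4 lower, and under it and under quantile normalization the member median was 0.06 and 0.04, against -0.06 in the authors' scaling. In aged cells ATG8 had 8.87 and 8.83 in hst3 hst4 libraries and 7.91 in wild type (0.94 ± 0.19), and ATG26 had 10.98 and 11.03, against 10.43 (0.57 ± 0.12). These 2 were called higher, where 8.44% of all features were. With lane as a term in the fit, both lost their call (adjusted p = 0.0548 for ATG8 and 0.0972 for ATG26). The spread of the single wild-type library at each age was taken from the hst3 hst4 pairs. In log phase the members took 0.112% of reads in that wild-type library, and 0.115% and 0.123% in hst3 hst4 libraries. Wild type of the mus81 table had only 0.0562% and 0.0550% in log phase. The log-phase comparison and the change with age both rest on this 1 wild-type log-phase library. The cause of its higher share was not tested. A fit with no variance trend left 0 members called in both comparisons. Without an aged hst3 hst4 replicate no member was called in either comparison, and without a log-phase replicate more members were called. Such refits leave only 1 pair of libraries to set the spread.

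The change with age differed between the strains for the same 3 genes. ATG1 was higher in aged than in log-phase hst3 hst4 cells by 0.98 and 1.04 in replicates 1 and 2, against -0.31 in wild type, a difference of 1.32 ± 0.23 (limma, adjusted p = 0.0385). ATG9 was at 0.78 and 0.90, against -0.30 in wild type (1.14 ± 0.22, adjusted p = 0.0436), and ATG2 at 0.98 and 0.95, against 0.04 (0.93 ± 0.19, adjusted p = 0.0472). In this contrast 3 of 28 members were called higher and 0 lower, where 4.29% of all features were called higher. These calls share the log-phase libraries with the comparison in log phase. None of the 3 was called without either aged hst3 hst4 replicate, with adjusted p between 0.228 and 0.288, and quantile normalization or a fit with no variance trend left 0 members called. In the wild type of this table no member was called between aged and log-phase cells (3.63% of all features in either direction), by limma or by voom. There 8 members had an unadjusted p under 0.05, 5 of them higher. Without either log-phase hst3 hst4 replicate, members were called in both directions, from a refit in which only the aged pair set the spread. The wild-type median was -0.07, and ATG33 (8.56 in the aged and 7.51 in the log-phase library) was the 1 member that differed by more than 1 on the log2 scale.

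In the translocation table ATG genes rose with age in both strains. No member was called between the strains, by a term that averages over the ages. At 48 h, 17 of 28 members were called higher than in log phase (23.1% of all 6651 features), with a median of 1.03 beside 0.18 over all features. At 24 h, 8 of 28 were (21.1% of all features), with a median of 0.45. No member was called between 48 h and 24 h, as no feature was (0%), by limma or by voom. At an unadjusted p under 0.05 there were 6 members, a count with no share over all features beside it. The fit took strain and age as additive terms with 1 library per strain and age. Without the control 48 h library or the XIIr<>V 48 h library, 5 members were called at 48 h and 5 at 24 h, and quantile normalization gave 8 at 48 h. Daughter cell markers summed to 9832 for log phase, 7129 for 24 h and 7429 for 48 h in XIIr<>V libraries, and to 10034, 7581 and 8482 in control libraries.

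ATG8 had log2 values of 4.97 for log phase, 7.88 for 24 h and 8.71 for 48 h in XIIr<>V libraries, and 5.34, 7.84 and 8.89 in control libraries. ATG33 had 5.35, 8.00 and 8.62 in XIIr<>V libraries and 5.51, 7.90 and 8.89 in control libraries. ATG34 had 4.08, 6.75 and 7.23, and 4.22, 6.39 and 7.72 in the control. For these 3 genes every aged library lay above every log-phase library, and the 48 h changes were 3.64 ± 0.26, 3.33 ± 0.25 and 3.33 ± 0.33. ATG39 was at 2 reads in both log-phase libraries, and had 138 and 231 reads at 24 h and 48 h in XIIr<>V libraries and 48 and 388 in control libraries. ATG10, which rested on 3 reads in the XIIr<>V log-phase library and 8 in the control, was fitted at 2.53 ± 0.57. ATG32 rose by 1.63 ± 0.43 here, and it lost its call under quantile normalization.

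XIIr<>V places the part of chromosome XII right of the ribosomal DNA on chromosome V, and 4 members lie in that part: ATG17, ATG23, ATG26 and ATG33. None of the 28 members was called between XIIr<>V and control (0.015% of all features in either direction), and none had an unadjusted p under 0.05, by limma, or a call by voom. The member median was -0.01, with a range from -0.55 ± 0.32 for ATG14 to 0.54 ± 0.35 for ATG32. The 48 h change of the 4 genes was 0.72 in XIIr<>V and 1.28 in control for ATG17, 0.56 and 0.31 for ATG23, 0.84 and 1.65 for ATG26, and 3.28 and 3.38 for ATG33, each from 1 library per age. Among the other members some 48 h changes were unequal. ATG2 changed by 0.60 in XIIr<>V and 2.49 in control, and ATG1 by 1.04 and 2.48. In log phase ATG2 was at 6.59 in XIIr<>V and 4.93 in control, and ATG1 at 5.99 and 4.71. ATG14 went the other way, with 2.46 in XIIr<>V and 1.43 in control. Whether the change with age differed between these strains was not tested, since no replicate library was left to do so.

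**Figure D5:**
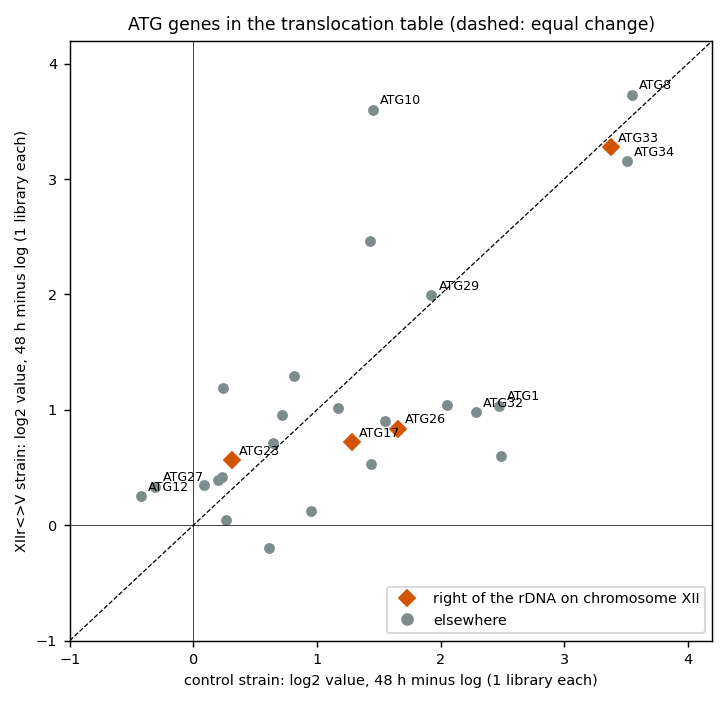
Each point is an ATG gene in the translocation table: the horizontal axis gives the log2 value at 48 h minus log phase in the control strain and the vertical axis the same in XIIr<>V, from 1 library each. Orange diamonds are the 4 genes right of the ribosomal DNA on chromosome XII, which lie at 0.31 to 3.38 in control and 0.56 to 3.28 in XIIr<>V, among the other members.

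Across the 4 late comparisons (48 h in mus81 cells, in wild type and in the translocation table, and aged hst3 hst4 cells), 10 of 28 members were called higher in all, where 12.1% of the 6604 features tested in every table were: ATG1, ATG2, ATG8, ATG9, ATG11, ATG17, ATG22, ATG26, ATG29 and ATG33. The mus81 and wild-type comparisons come from 1 fit, and the 3 tables were scaled separately. The wild type of the hst3 hst4 table, with 1 aged and 1 log-phase library, is not among the 4: there no member was called, and 16 of 28 had a change below 0. ATG12 and ATG27 were called higher in none. ATG12 was at 0.35 in mus81 cells, 0.38 in wild type, -0.03 in hst3 hst4 cells and -0.09 in the translocation table.

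Genes around the pathway moved in both directions, and the list counts at 48 h are to be read against the shares over all features (30.7% higher and 29.5% lower in mus81 cells, 33.1% and 30.1% in wild type). Of 14 autophagy partners without an ATG name, 5 were called higher and 4 lower at 48 h in mus81 cells, and 4 and 4 in wild type, close to those shares. VPS34, the PI3-kinase itself, rose by 1.08 and 1.23, and its regulatory partner VPS15 by 0.45 and 0.85, while the fusion factors YPT7, a small GTPase, and VAM3, a SNARE, fell by 0.35 and 0.88 in mus81 cells and by 0.43 and 0.68 in wild type. Of 12 vacuolar hydrolases and cargo genes, 6 were higher and 4 lower in mus81 cells, and 7 and 3 in wild type. The cargo enzymes AMS1 and APE1 (LAP4 in the tables) rose by 4.19 and 2.44 in mus81 cells and by 5.27 and 2.78 in wild type. The proteases PRB1 and PEP4 rose by 1.90 and 1.52, and by 1.94 and 1.74, whereas VTC4, a polyphosphate polymerase subunit, fell by 2.69 and 2.28, and the phosphatase PHO8 by 1.46 and 1.19.

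Among 22 genes of TORC1, its regulators and nutrient kinases, 7 were higher and 5 lower at 48 h in mus81 cells, and 8 and 6 in wild type, close to the shares over all features. TOR1 and KOG1, which encode the kinase and its scaffold, were not called in either strain. The protein kinase A subunit TPK2 rose by 0.81 and 1.14, while TPK3 fell by 0.67 and 0.72 and SCH9, a substrate kinase of TORC1, by 0.52 and 0.80. Of 11 transcription regulators of ATG genes, 2 were higher and 3 lower in mus81 cells, and 2 and 4 in wild type, again beside those shares. PHO23, part of the Rpd3 deacetylase complex and a repressor of ATG9, fell by 1.27 and 1.19. MSN2 fell by 1.00 and 0.90, and its paralogue MSN4 rose by 0.85 and 0.96. UME6, whose product binds URS1, was at -0.31 and -0.51 and was not called. In aged against log-phase hst3 hst4 cells the regulators gave 6 of 11 higher and 1 lower, beside 28.6% and 23.6% of all features, with GAT1 at 2.77.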

How the data were processed

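The deposited tables give log2 values, one column per library, which the authors scaled within each table. The submitters' processing notes name Trim Galore 0.6.6, HISAT2 2.1.0 and build R64. The counting program, its strand setting and the kind of scaling are not given there or in other sources used here. Raised to the power of 2, all values under 200 reads were whole multiples of what 1 read is worth in that library (within 0.02 of a read, with a count of 0 entered as 0.9), which gave the reads and depths quoted. The p-values do not carry this counting error separately, and no interval was drawn from it.

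Features above 0 reads in at least 2 libraries were kept (6669 features for mus81, 6613 for hst3 hst4 and 6651 for the translocation strains). Each table was fitted on its own with limma 3.58.1 (lmFit and eBayes with a variance trend) in R 4.3.3. The mus81 and hst3 hst4 fits had 1 term per group, and the translocation fit had strain and age as additive terms. P-values were adjusted by Benjamini-Hochberg over all features of a table, with calls made at an adjusted p under 0.05. Changes are log2 differences with limma's standard error, and a fold is 2 to the power of one. The fit was also run on simulated counts with known changes, for an age comparison of each table and with the same spread setting for every gene. Comparisons between strains were not simulated, and no result above rests on the simulation. Alternatives were quantile normalization, median centring, no filter, features under the 25th percentile left out, no variance trend, voom on recovered reads, a replicate block, only the groups compared, 1 lane of the hst3 hst4 table alone, and each library left out in turn.

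The members and all gene lists were chosen with earlier results of these data known. Values per library go to ATG8, ATG1, the receptors, the 3 called members with the largest change each way in an age comparison, and members called between strains. Upstream windows, coordinates and overlaps come from RefSeq R64, in which 28 of 28 members had the coordinates of the tables.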

Additional observations from a re-analysis of the deposited data

Results flagged for a closer look

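In the hst3 hst4 table the change with age differed between the double mutant and wild type for ATG1, ATG9, ATG2 and ATG39, by the test of that difference itself. The difference, hst3 hst4 minus wild type on the log2 scale, was 1.32 for ATG1, 1.14 for ATG9 and 0.93 for ATG2, whose values per library are given above. For ATG39 it was 1.60 (limma, adjusted p = 0.0385). ATG39 had 474 and 426 reads in aged hst3 hst4 libraries, against 70 and 49 in log phase, and 156 reads in the aged wild-type library, against 118 in log phase. Its log2 change with age was 2.65 and 2.30 in hst3 hst4 replicates 1 and 2, against 0.88 in wild type. The changes in replicates 1 and 2 join aged and log-phase libraries by title number, which was not taken as a pairing. Both are set against the same 1 wild-type pair. The 4 genes were picked by this contrast, so the direction of these changes is not separate support. All 4 lost the call without either aged hst3 hst4 replicate (adjusted p from 0.228 to 0.288).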

How the results depend on the processing

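Values here are numbers of the 28 members called. The share of all features called under each alternative is not given beside them, here or above. They show how far the calls depend on processing and are not results about the members. Quantile normalization gave 9 at 24 h in wild type, 6 between 48 h and 24 h in wild type, 14 at 48 h in mus81 cells and 8 at 48 h in the translocation table. For hst3 hst4 against wild type it gave 1 in log phase, 1 in aged cells and 0 for the change with age. Voom gave 6 between 48 h and 24 h in wild type and 3 in mus81 cells, 5 for hst3 hst4 against wild type in log phase and 5 for the change with age. With only the groups compared, 6 were called between 48 h and 24 h in wild type. With features under the 25th percentile of mean level left out, 3 were called between 48 h and 24 h in mus81 cells and 1 between the strains at 24 h. With no variance trend, 0 were called between 48 h and 24 h in mus81 cells, 0 in each of the 3 comparisons of hst3 hst4 with wild type, and 5 at 24 h in the translocation table. Median centring gave 5 for hst3 hst4 against wild type in log phase and 1 for the change with age. The cause was not tested.

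Title replicate numbers were not taken as pairs: same-numbered libraries had deviations correlated at -0.23 to 0.29 in the mus81 table and at 0.02 in the hst3 hst4 table. With the replicate number as a block, 2 members were called between 48 h and 24 h in mus81 cells, 1 between mus81 and wild type at 24 h, and 0 between aged hst3 hst4 and wild type. The column names of the mus81 table carry a tag of unstated meaning, which runs against the title numbers at 24 h. Libraries with the same tag correlated at -0.29 to 0.24, and with the tag as a block 11 members were called between 48 h and 24 h in wild type, with no other count changed.

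Leaving out each library in turn gave 1 to 15 between 48 h and 24 h in wild type, 0 to 4 in mus81 cells, and 0 to 4 between the strains at 24 h. It gave 5 to 18 for aged hst3 hst4 cells against log phase, and 0 to 13 in the wild type of that table. For hst3 hst4 against wild type it gave 0 to 15 in log phase, 0 to 15 in aged cells and 0 to 15 for the change with age. In the translocation table it gave 5 to 9 at 24 h, 5 to 18 at 48 h and 0 to 2 between them. Over 69 single-gene results, 1184 values under alternatives held 0 reversed directions, 107 lost calls and 6 values that moved by more than the spread between replicates when the only libraries used were those of the lane that holds replicate 1 and wild type. Depth limits ATG10, ATG14, ATG16, ATG29 and ATG39, which had under 30 reads in every log-phase library of the mus81 table.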
